A study of Mus musculus with 5 samples.

Results

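The 10 genes studied here link calcium signals to transcription in T cells. These genes were followed in regulatory T (Treg) cells and in Thy1.1-positive cells that the labels call Foxp3 reporter-null. They were chosen by symbol from a table of 24417 genes: the transcription factors Nfatc1, Nfatc2 and Nfatc3, the calcineurin catalytic subunits Ppp3ca and Ppp3cb, the calcineurin regulator Rcan1, the early growth response factors Egr1, Egr2 and Egr3, and Tox. All 10 members were found, and all 10 passed the filter on low counts. RNA-seq counts came from 5 libraries of colon lamina propria cells, 2 of Treg cells positive for Foxp3-DTR-GFP and 3 of Thy1.1-positive reporter-null cells. Both groups share a listed strain whose name pairs Foxp3DTR-GFP with a second allele, loxp-Thy1.1-STOP-loxp-GFP. Every library therefore comes from mice with a DTR-GFP reporter at Foxp3 beside a Thy1.1 cassette and stop signal flanked by loxP sites. The labels give no age, sex or treatment and do not say whether libraries came from separate animals, so a p-value here measures only how far these libraries spread, and that spread may be technical. The description of reporter-null replicate 1 carries 2 numbers, 1 and 4, and those of the others carry 1. Each group is a sort on a reporter from bulk RNA, in which fewer cells of a type and less RNA per cell cannot be told apart.

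In T cells, engagement of the antigen receptor releases calcium from internal stores and opens channels of the plasma membrane. Calcium-loaded calmodulin activates the phosphatase calcineurin, which strips phosphates from NFAT proteins so that they enter the nucleus. There NFAT works with partners such as AP-1 to switch on cytokine genes, and in Treg cells it can pair with Foxp3. NFAT acting without AP-1 is known for driving programmes of tolerance and exhaustion, in which Egr2, Egr3 and Tox take part. RCAN1 binds and restrains calcineurin, and its gene is itself a target of NFAT.

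Promoter sequences show where the letters read by these factors stand. From the RefSeq table of promoters (GRCm38.p6) 12 windows for 5 of the members were kept. Member windows on a single chromosome were left out of this search, though not out of the shares over all windows. A member without a window here, such as Nfatc1 or Egr1, may therefore still have one in that table. The 250 bases before the start were searched on both strands for short motifs. These were the NFAT core GGAAA, the EGR site GCGNGGGCG and the CArG box bound by serum response factor. Over all 32817 windows of that length, 55.6% held the NFAT core, 4.7% the EGR site and 1.47% the CArG box. Nfatc3 is shown because it had the smallest p of the members. Egr2 is shown because its level differed more between the Treg libraries than that of any other member. Rcan1 is shown because its downstream start lies beside 3 NFAT cores, so its window was chosen by its motifs. Windows of Nfatc2, Egr2 and Ppp3cb also held 3 NFAT cores, and the share of all windows with as many was not computed. Capitals mark the matches, and a match is only a run of letters, not a measured binding site. The first 2 sequences are Nfatc3 windows on the plus strand at chr8:106058568-106058817 and chr8:106059340-106059589, the third is Egr2 on the plus strand at chr10:67537619-67537868, and the fourth is the downstream Rcan1 start on the minus strand at chr16:92400079-92400328.
Nfatc3, first start: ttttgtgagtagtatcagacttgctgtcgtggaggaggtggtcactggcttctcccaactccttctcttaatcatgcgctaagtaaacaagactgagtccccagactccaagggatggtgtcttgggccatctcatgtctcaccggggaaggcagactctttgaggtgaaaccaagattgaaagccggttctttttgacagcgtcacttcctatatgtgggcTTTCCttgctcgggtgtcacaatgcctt
Nfatc3, second start: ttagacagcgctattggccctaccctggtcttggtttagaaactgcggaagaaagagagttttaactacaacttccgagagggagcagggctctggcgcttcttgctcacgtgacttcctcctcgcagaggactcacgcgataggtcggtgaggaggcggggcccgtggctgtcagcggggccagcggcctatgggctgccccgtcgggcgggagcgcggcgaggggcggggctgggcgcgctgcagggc
Egr2: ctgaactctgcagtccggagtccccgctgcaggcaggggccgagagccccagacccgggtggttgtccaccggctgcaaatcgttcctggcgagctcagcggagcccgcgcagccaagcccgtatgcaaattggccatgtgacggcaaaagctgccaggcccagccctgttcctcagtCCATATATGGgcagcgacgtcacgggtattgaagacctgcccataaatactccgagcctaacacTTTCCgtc
Rcan1, downstream start: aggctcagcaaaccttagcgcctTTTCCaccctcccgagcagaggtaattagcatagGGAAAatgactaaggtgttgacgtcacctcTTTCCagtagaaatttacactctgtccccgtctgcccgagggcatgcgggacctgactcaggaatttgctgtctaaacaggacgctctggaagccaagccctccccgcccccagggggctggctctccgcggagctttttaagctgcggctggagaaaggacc

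The second Nfatc3 window held none of the 3 motifs, and the first held 1 NFAT core on the opposite strand. Of 5 Egr2 windows 4 held an NFAT core and a CArG box and 1 held no motif. The windows that begin at 67537619, 67537620 and 67537680 overlap and hold the same CArG box and the same NFAT core. Their matches are therefore not separate. The window printed was chosen after its motifs were seen. It held 1 CArG box at 72 to 63 bases before the start and 1 NFAT core at 8 to 4 bases before it, also read on the opposite strand. In the Rcan1 window 3 NFAT cores lay between 227 and 159 bases before the start, and the upstream Rcan1 window held 0. The count table has 1 value per symbol, so transcripts from different starts of Rcan1, Nfatc3 or Egr2 were not separated.

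Total counts ran from 17670420 to 22395169 per library. Levels are given as CPM, counts divided by the library size after TMM scaling, with mean ± SD over n = 2 Treg and n = 3 reporter-null libraries, and fold changes are reporter-null minus Treg on the log2 scale with their standard error (SE). Transcripts of the T cell receptor subunit Cd3e lay between 1036 and 1260 CPM in the 5 libraries, and Cd8a reached at most 0.542 CPM. Other CD4 T cell identity genes were not level: of 9 tested 1 rose (Cd4, 0.99), 1 fell (Cd2, -1.37) and 7 did not pass. Over all genes tested 8.79% were called, the share beside which each marker list here is read. Foxp3 was 764 to 770.0 CPM in Treg and 75.7 to 81.3 CPM in reporter-null libraries. Treg replicate 1 and reporter-null replicate 2 stood apart. Both carry the number 2 in their descriptions, and the labels do not say what that number marks. The summed level of 12 colon epithelium markers, led by Krt8 and Krt19, was 361 CPM in the former and 1605 CPM in the latter, against 40.8 to 52.4 CPM elsewhere. Of these 12 markers 0 were called by edgeR, 0 had an unadjusted p under 0.05, and Muc2 and Fabp2 were at 0 in reporter-null replicates 1 and 3. The same 2 libraries had the lowest summed level of 4 heat shock genes, 5520 and 7612 CPM against 30550 to 37920 CPM. Over 16 immediate early and related genes the sum was 27610 CPM in Treg replicate 1 and 38400 CPM in reporter-null replicate 2, and the latter lay inside the 35230 to 42550 CPM of the other 3. The summed level of B and plasma cell markers was also highest in these 2 libraries. It was 1414 CPM in Treg replicate 1 and 858 CPM in reporter-null replicate 2 against 382.5 to 434 CPM. Most of it was Jchain, at 1333 and 807 CPM in these 2 libraries. Cd79b did not follow them, with 20.4 and 19.2 CPM in Treg and 7.42, 7.10 and 6.81 CPM in reporter-null libraries. Of 7 such markers 1 fell (Cd79b, -1.47) and 0 rose, and Ms4a1 was at 0 in reporter-null replicate 1. Markers of macrophages, monocytes and dendritic cells summed to 71.2 and 129 CPM in these 2 libraries against 35.8 to 43.5 CPM, and 0 of 11 were called. Those of stroma, endothelium and muscle summed to 129 and 209 CPM against 103 to 118 CPM. Of 7 tested 1 rose, Pdgfrb, from 0.163 and 0.277 CPM in Treg to between 6.19 and 10.3 CPM in reporter-null libraries. Among markers of NK, CD8 and innate lymphoid cells 2 of 7 rose (Klrk1 and Kit) and 0 fell. Klrk1 went from 0.647 and 3.09 CPM to between 26.2 and 27.3 CPM, and Kit from 6.52 and 7.68 CPM to between 14.7 and 37.2 CPM. Cd8b1, Klrb1c and Eomes were lower in every reporter-null library and did not pass. Cd8b1 was 11.6 and 11.1 CPM in Treg and 3.41 to 7.34 CPM in reporter-null libraries. Il1rl1, the highest of the list, ran from 41.0 to 107 CPM with overlapping groups, and Ncr1 reached at most 1.34 CPM. The part of these transcripts in the results was not tested. Where leaving out the 2 libraries that stood apart moved the value of a member, the value without them is given beside it. Balances between members were recomputed only with single libraries left out.

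Members of the NFAT, calcineurin and EGR group were higher in reporter-null cells where they changed. Of the 10 members, 3 rose (Nfatc1, Nfatc3 and Egr3), 0 fell and 7 did not pass an adjusted p of 0.05 in the edgeR quasi-likelihood test. Over all 14164 genes tested 8.79% passed. At an unadjusted p under 0.05 there were 4 members, against 22.6% of all genes tested. DESeq2 called 3 members and 16.4% of all genes, and limma-voom 2 members and 8.57% of all genes, with every such member higher. The median log2 fold change was 0.458 over the members and 0.018 over all genes tested. In 5 of the 10 members every reporter-null library lay above both Treg libraries, against 40.8% of all tested genes without overlap in either direction, so that share was near the background. The calls depended on single libraries. Without Treg replicate 1 or without reporter-null replicate 1 the count was 0, without Treg replicate 2 it was 1 (Egr1), without reporter-null replicate 3 it was 2 (Nfatc1 and Nfatc3), and without both libraries that stood apart it was 1 (Egr3). Fits with 1 Treg library left assume that it varies like the reporter-null libraries.

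**Figure D1:**
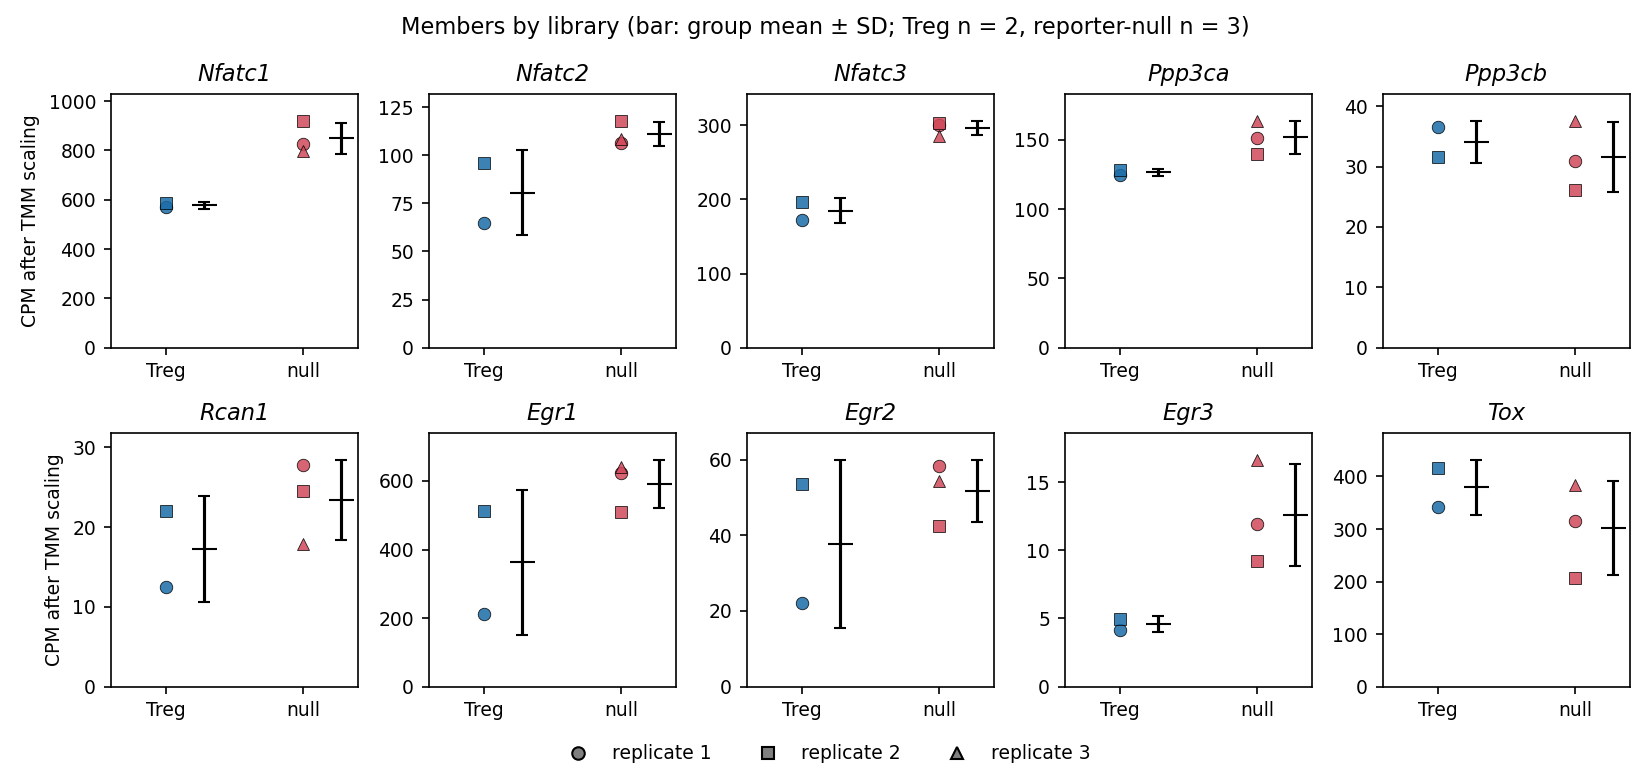
CPM after TMM scaling of the 10 members in each library, with Treg libraries in blue and reporter-null libraries (null) in red, the replicate given by the symbol, and bars for the group mean ± SD (n = 2 and n = 3). The groups do not overlap for Nfatc1, Nfatc2, Nfatc3, Ppp3ca and Egr3, and the Treg libraries lie far apart for Egr1 (213 and 512 CPM) and Egr2 (21.99 and 53.5 CPM).

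Nfatc3, a family member expressed from the thymus onwards in T cells, stood at 173 and 197 CPM in Treg replicates 1 and 2 and at 301, 303 and 285 CPM in reporter-null replicates 1, 2 and 3. All reporter-null libraries were higher than both Treg libraries, and each group was tight. The means were 185 ± 16.75 and 296 ± 9.78 CPM, a 1.605-fold difference (log2 fold change 0.68, SE 0.114, edgeR adjusted p = 0.015). Leaving out Treg replicate 1 gave an adjusted p of 0.156, Treg replicate 2 gave 0.0766 and reporter-null replicate 1 gave 0.0851, none of which passed. It ran from 1.31e-08 to 0.156 over the 15 alternatives, while the log2 fold change stayed between 0.58 and 0.78. With both libraries that stood apart left out it was 0.58 (0.0624).

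Nfatc1, which encodes the NFAT protein that activated T cells induce through an autoregulated promoter, was 569 and 589 CPM in Treg and 827, 921 and 799.6 CPM in reporter-null libraries. The highest value was that of reporter-null replicate 2, and the groups did not overlap. The means were 579 ± 14.1 and 849 ± 63.5 CPM, a 1.47-fold difference (0.55, SE 0.122, edgeR adjusted p = 0.0389). It did not pass with Treg replicate 1 (0.267), Treg replicate 2 (0.187) or the first reporter-null library (0.139) left out, and over all alternatives the adjusted p was 8.68e-06 to 0.267. Without reporter-null replicate 2, the library with the most epithelial transcripts, the log2 fold change was 0.48 (0.0375), and without both libraries that stood apart it was 0.47 (0.161).

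Nfatc2, the NFAT protein present in resting T cells, had Treg values of 64.9 and 96.1 CPM and reporter-null values of 106, 118 and 109 CPM. The groups did not overlap, but the Treg libraries differed from each other by 1.48 times. The log2 fold change was 0.46 (SE 0.178, edgeR adjusted p = 0.183), with means of 80.5 ± 22.1 and 111 ± 6.14 CPM and a 95% interval of 0.04 to 0.89 before adjustment. It was 0.21 without Treg replicate 1 and 0.78 without Treg replicate 2, and 0 of 15 alternatives called it. Without both libraries that stood apart it was 0.17 (0.727).

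**Figure D2:**
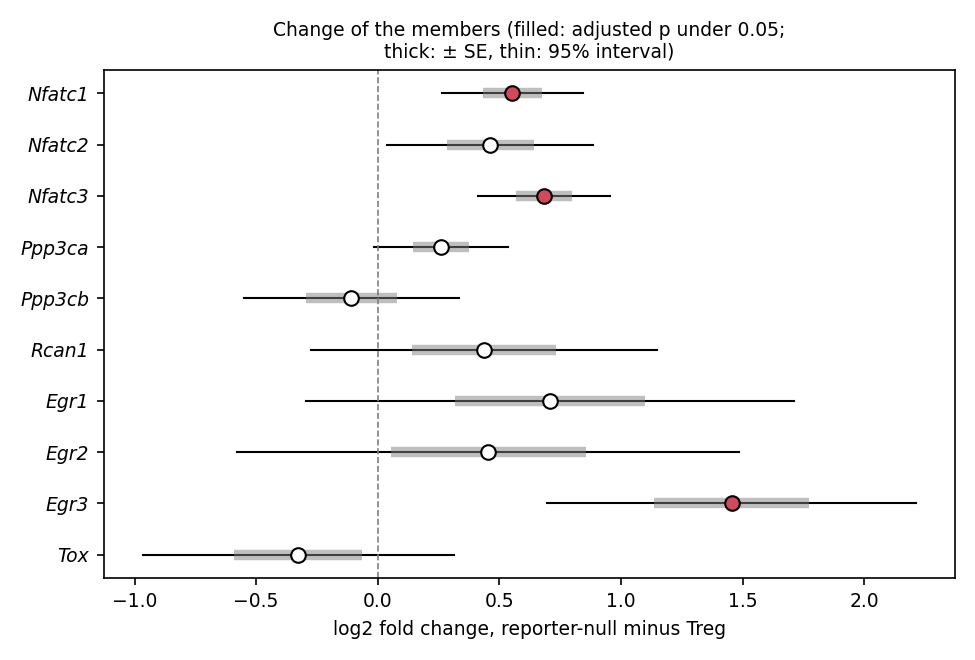
Log2 fold change of each member, reporter-null minus Treg, from the edgeR fit, with ± SE as a thick grey bar, the unadjusted 95% interval as a thin line and filled points for an adjusted p under 0.05. The filled points are Nfatc1 (0.55), Nfatc3 (0.68) and Egr3 (1.46), and the intervals of Egr1 and Egr2 are the widest of the 10.

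The calcineurin genes did not pass. Ppp3ca, the alpha catalytic subunit, was 125 and 128 CPM in Treg and 152, 139.9 and 164 CPM in reporter-null libraries. All reporter-null values lay above the Treg values, by little: the log2 fold change was 0.26 (SE 0.116, edgeR adjusted p = 0.247), with a 95% interval of -0.01 to 0.54. Ppp3cb, the beta catalytic subunit, was 36.5 and 31.6 CPM in Treg and 31.0, 26.1 and 37.6 CPM in reporter-null libraries. Here the groups overlapped (-0.11, SE 0.186, edgeR adjusted p = 0.803, 95% interval -0.55 to 0.33). These intervals leave room for changes of Ppp3ca up to 0.54 and of Ppp3cb up to 0.55 in size, so equal levels in the groups are not shown. Without both libraries that stood apart the value of Ppp3ca was 0.30, and the sign of Ppp3cb turned, to 0.125.

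Rcan1 is read as an output of calcineurin activity because its downstream promoter answers to NFAT. Its levels were 12.5 and 22.01 CPM in Treg and 27.8, 24.5 and 17.9 CPM in reporter-null cells. Reporter-null replicate 3 lay between the Treg libraries, and the log2 fold change was 0.44 (SE 0.297, edgeR adjusted p = 0.461). The value moved with single libraries, to 0.09 without Treg replicate 1 and 0.90 without Treg replicate 2, and it was 0.06 without both libraries that stood apart. Of the 3 genes in this group (Ppp3ca, Ppp3cb and Rcan1) 0 had an unadjusted p under 0.05, and DESeq2 and limma-voom called 0.

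Egr3, a zinc finger factor that with Egr2 restrains T cell activation, showed the largest change of the 10 members. It was a low transcript, with 77 and 108 counts in Treg and 220, 192 and 374 counts in reporter-null cells, or 4.18 and 4.99 CPM against 11.9, 9.22 and 16.6 CPM. The lowest reporter-null library was well above both Treg libraries, and reporter-null libraries spread by 1.81 times among themselves. The means were 4.59 ± 0.575 and 12.6 ± 3.76 CPM, a 2.74-fold difference (1.46, SE 0.319, edgeR adjusted p = 0.0374). With limma-voom the adjusted p was 0.068 and without the robust option 0.0508. Leaving out a library gave 0.242 and 0.157 for Treg replicates 1 and 2, and 0.138 and 0.083 for reporter-null replicates 1 and 3, so that Egr3 did not pass in these fits (range over all alternatives 3.96e-05 to 0.242). Without both libraries that stood apart the log2 fold change of Egr3 was 1.52. That fit leaves 1 Treg library and gave the low end of the range. Its adjusted p values and calls, for Egr3, the other members and the list genes, therefore rest on an assumed spread of Treg libraries. The same limit holds for the fits that leave out either Treg library alone. No call is taken as firmer because it passed in such a fit.

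Egr1 and Egr2 differed more between the Treg libraries than between the groups. Egr1, the family member induced within minutes of receptor or growth factor signals, was 213 and 512 CPM in Treg and 624, 510.2 and 639 CPM in reporter-null libraries. Treg replicate 1 was far below the other 4 libraries, and Treg replicate 2 reached the level of reporter-null replicate 2. The log2 fold change was 0.71 (SE 0.391, edgeR adjusted p = 0.381), with means of 362 ± 212 and 591 ± 70.6 CPM. It was 0.21 without Treg replicate 1 and 1.48 without Treg replicate 2, and the latter passed (0.04, range 0.04 to 0.707). Without both libraries that stood apart it was 0.31 (0.444).

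Egr2, which is known for its part in T cell anergy, followed the same order of libraries within the Treg group. It was 21.99 and 53.5 CPM in Treg and 58.3, 42.5 and 54.5 CPM in reporter-null libraries. Treg replicate 2 lay inside the reporter-null range (0.45, SE 0.402, edgeR adjusted p = 0.6). Without Treg replicate 1 the sign turned (-0.05), and without Treg replicate 2 the value was 1.24 (0.0761). It was 0.08 (0.89) without both libraries that stood apart. The ratio of Treg replicate 2 to Treg replicate 1 was 2.41 for Egr1 and 2.43 for Egr2, against 1.19 for Egr3. As a description, 90.4% and 90.5% of tested genes differed less between the Treg libraries than Egr1 and Egr2, and 51.1% less than Egr3.

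Of 20 genes that respond to tissue dissociation, 12 of the 16 immediate early and related genes and 3 of the 4 heat shock genes were lowest in Treg replicate 1, the library with the least Egr1 and Egr2. Others went another way, such as Jund, which was 5502 and 5398 CPM in Treg and 5040, 6224 and 4251 CPM in reporter-null libraries. Hspa1a, an inducible heat shock chaperone, was 1371 CPM in Treg replicate 1 and 2047 CPM in reporter-null replicate 2, against 11238 to 13660 CPM in the other 3. Atf3, a stress-induced factor, was 83.2 CPM in Treg replicate 1 and 274 to 334 CPM elsewhere. Fos, an immediate early partner of NFAT, was 2072 CPM in Treg replicate 1 and 3482 CPM in Treg replicate 2, and 3146 to 5453 CPM in the reporter-null libraries. With all libraries 4 of the 20 rose (Fosb, Ier3, Btg2 and Nfkbia), 1 fell (Socs3, which is also on the tolerance list) and 15 did not pass. Their median log2 fold change was 0.376, and 8.79% of all genes tested were called. Leaving out Treg replicate 1 or reporter-null replicate 1 turned the 5 calls into 1, and leaving out Treg replicate 2 into 2. There were 9 with DESeq2 or without reporter-null replicate 2, and 8 without both libraries that stood apart. Their part in the values of Egr1, Egr2 and Egr3 was not tested.

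**Figure D3:**
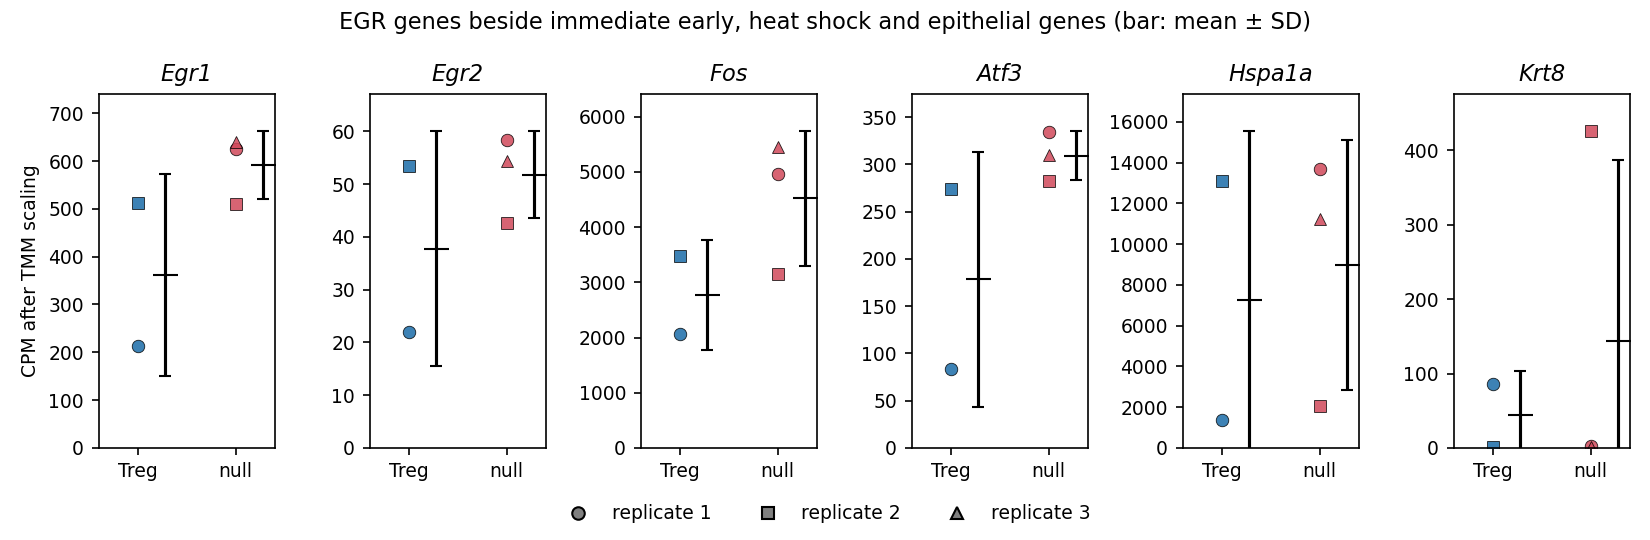
CPM after TMM scaling of Egr1 and Egr2 beside the immediate early genes Fos and Atf3, the heat shock gene Hspa1a and the epithelial keratin gene Krt8, per library, with bars for mean ± SD (n = 2 Treg, n = 3 reporter-null) that are clipped at 0. Treg replicate 1 is the lowest library for Egr1, Egr2, Fos, Atf3 and Hspa1a, and reporter-null replicate 2 the highest for Krt8 (426 CPM).

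Tox, an HMG-box factor of exhausted T cells, was the member with the most negative difference. It was 342 and 417 CPM in Treg and 316, 207 and 383 CPM in reporter-null libraries. Reporter-null replicate 3 lay between the Treg libraries and reporter-null replicate 2 was the lowest. The means were 379 ± 52.5 and 302 ± 88.9 CPM (-0.33, SE 0.261, edgeR adjusted p = 0.548, 95% interval -0.97 to 0.31), and without reporter-null replicate 2 the value was -0.13. The value without both libraries that stood apart was -0.25. Of 15 alternatives 0 called Tox.

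**Figure D4:**
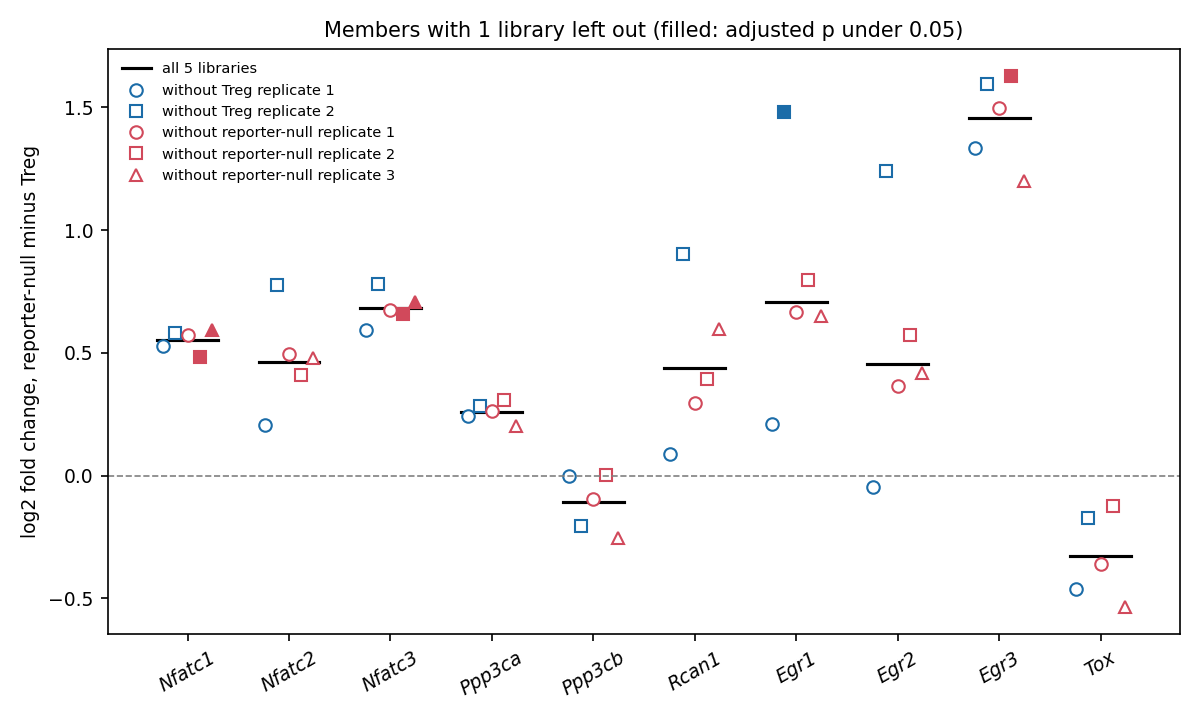
Log2 fold change of each member, reporter-null minus Treg, with all 5 libraries (black line) and with each library left out in turn (blue for a Treg and red for a reporter-null library, symbol for the replicate, filled for an adjusted p under 0.05). Nfatc1 (0.48 to 0.59) and Nfatc3 (0.59 to 0.78) move little, and Egr1 (0.21 to 1.48) and Egr2 (-0.05 to 1.24) move most.

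The balance between related members was compared within libraries, where gene length cancels between the groups. The log2 level of Ppp3ca minus that of Ppp3cb was 1.77 and 2.02 in Treg and 2.29, 2.42 and 2.12 in reporter-null libraries, with no overlap (difference 0.38, exact two-sided permutation p = 0.2). Egr1 minus Egr2 was 3.27 and 3.26 in Treg and 3.42, 3.58 and 3.55 in reporter-null libraries, so these genes kept nearly the same ratio in the Treg libraries although both differed 2.41 to 2.43 times between them (difference 0.26, exact permutation p = 0.1). Egr2 minus Egr3 was 2.37 and 3.40 in Treg and 2.28, 2.19 and 1.71 in reporter-null libraries (difference -0.82, exact permutation p = 0.1). That difference was -0.308 without Treg replicate 2 and -1.335 without Treg replicate 1. The NFAT pairs overlapped, with a difference of 0.06 for Nfatc1 minus Nfatc2, -0.13 for Nfatc1 minus Nfatc3 and -0.20 for Nfatc2 minus Nfatc3, as did Egr1 minus Egr3 (-0.57). Without Treg replicate 2 the differences were -0.058 for Egr1 minus Egr3, -0.006 for Nfatc2 minus Nfatc3 and -0.196 for Nfatc1 minus Nfatc2. Over the 7 pairs the adjusted p was at least 0.35, and with 2 libraries against 3 the test cannot go below 0.1.

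The wider pathway was read from lists of genes around the members. Calcineurin and NFAT relatives did not pass: of 11 tested 0 were called by edgeR, 3 had an unadjusted p under 0.05 and DESeq2 called 1. With a median of -0.106 they lay near the median of all genes. Ppp3r1, the regulatory subunit of calcineurin, was 81.4 and 94.5 CPM in Treg and 114, 117.5 and 151 CPM in reporter-null libraries (0.53, SE 0.161, edgeR adjusted p = 0.1). Cabin1, a calcineurin inhibitor, differed by 0.58 (0.149), and Ppp3cc, the gamma catalytic subunit, by -0.34 (0.203). Of 9 kinases that return NFAT to the cytoplasm 0 were called by edgeR or DESeq2 and 0 had an unadjusted p under 0.05. The smallest p among them was that of Dyrk2, which primes NFAT for phosphorylation by other kinases (0.44, SE 0.197, edgeR adjusted p = 0.254), and the median of the list was -0.037.

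Among 14 genes of calcium entry 1 rose, 1 fell and 12 did not pass, with a median of 0.12 against 8.79% of all genes called. Stim2, a calcium sensor of the endoplasmic reticulum, fell from 93.8 and 98.0 CPM to 49.0, 57.4 and 50.8 CPM (-0.87, SE 0.118, edgeR adjusted p = 0.00646), and did not pass when either Treg library was left out (up to 0.0608). Orai2, a subunit of the calcium channel that tempers the current through Orai1, rose from 55.8 and 59.9 CPM to 117, 117 and 88.9 CPM (0.89, SE 0.157, edgeR adjusted p = 0.0174), and did not pass without either Treg library or without reporter-null replicate 1 (up to 0.163). The groups overlapped for neither gene. The calmodulin gene Calm2 (-0.38, edgeR adjusted p = 0.101) and the inositol trisphosphate receptor gene Itpr3 (0.44, edgeR adjusted p = 0.175) had the next smallest p.

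Among 8 EGR relatives, corepressors and serum response cofactors, 1 rose and 0 fell, with a median of 0.026, against 8.79% of all genes called. Elk3, a ternary complex factor that binds CArG boxes with serum response factor, rose from 75.7 and 82.2 CPM to 135, 127 and 132 CPM (0.73, SE 0.109, edgeR adjusted p = 0.00927), and did not pass without either Treg library or without reporter-null replicate 1 (up to 0.115). Nab2, a corepressor and target of EGR proteins, was 44.4 and 66.4 CPM in Treg and 101, 69.0 and 85.8 CPM in reporter-null libraries (0.62, edgeR adjusted p = 0.17). Of 6 TOX and NR4A factors 0 were called by edgeR, 1 had an unadjusted p under 0.05 and DESeq2 called 1. That gene, which encodes the orphan receptor NR4A2 (Nr4a2), was 77.6 and 109 CPM in Treg and 24.0, 17.6 and 7.92 CPM in reporter-null libraries, with no overlap (-2.50, SE 0.494, edgeR adjusted p = 0.055, range 2.51e-07 to 0.559 over 7 alternatives).

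Genes of T cell tolerance linked to NFAT and EGR factors fell in part. Of 17 tested 6 fell, 0 rose and 11 did not pass, with a median of -0.365, against 8.79% of all genes called. DESeq2 called 10. The Treg identity list moved beside it: 6 of its 7 genes fell, with a median of -1.64 and summed levels of 8725 and 7846 CPM in Treg against 4145 to 4723 CPM in reporter-null libraries, and its part in the tolerance genes was not tested. The diacylglycerol kinase Dgka, which dampens receptor signals in anergic T cells, fell from 526 and 508 CPM to 239.7, 226 and 236 CPM (-1.14, SE 0.102, edgeR adjusted p = 0.0015). Izumo1r, which encodes folate receptor 4, fell from 432 and 483 CPM to 76.7, 55.8 and 80.7 CPM (-2.69, edgeR adjusted p = 0.000626), and the neuritin gene Nrn1 from 34.1 and 38.7 CPM to 2.11, 1.39 and 2.85 CPM (-4.10, edgeR adjusted p = 0.000822). Both are also known as genes that Treg cells express highly. The signalling inhibitor Socs3 (-1.32) and the Notch regulator Dtx1 (-1.16) fell as well. Rnf128, on the same list, went the other way and did not pass (0.91, SE 0.227, edgeR adjusted p = 0.0583). It was 13.8 and 16.0 CPM in Treg and 22.4, 26.4 and 35.1 CPM in reporter-null libraries. Dtx1 did not pass without Treg replicate 1 (0.098), while Dgka, Izumo1r, Nrn1 and Socs3 passed in each of the 7 alternatives run on single list genes.

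Of 8 exhaustion receptors linked to NFAT and TOX, 3 fell and 0 rose, with a median of -0.465, against 8.79% of all genes called. Ctla4, which is also on the Treg identity list, did not pass (-0.24), nor did Pdcd1 (-0.41) or Lag3 (0.24). The part of Treg identity in these values was not tested. Tigit, an inhibitory receptor also high in Treg cells, fell from 372 and 354 CPM to 135, 171 and 130.4 CPM (-1.32, SE 0.145, edgeR adjusted p = 0.00308). Cd160 (-2.52, adjusted p = 0.00798) and Entpd1, which encodes the ectonucleotidase CD39 (-0.51, adjusted p = 0.0335), were the others. Cd160 did not pass without Treg replicate 2 (0.0958), and Entpd1 not without either Treg library, reporter-null replicate 1 or reporter-null replicate 3 (up to 0.17). Havcr2, which encodes the inhibitory receptor TIM-3, was 54.5 and 102.5 CPM in Treg and 122, 104 and 127 CPM in reporter-null libraries and did not pass (0.58, edgeR adjusted p = 0.284).

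**Figure D5:**
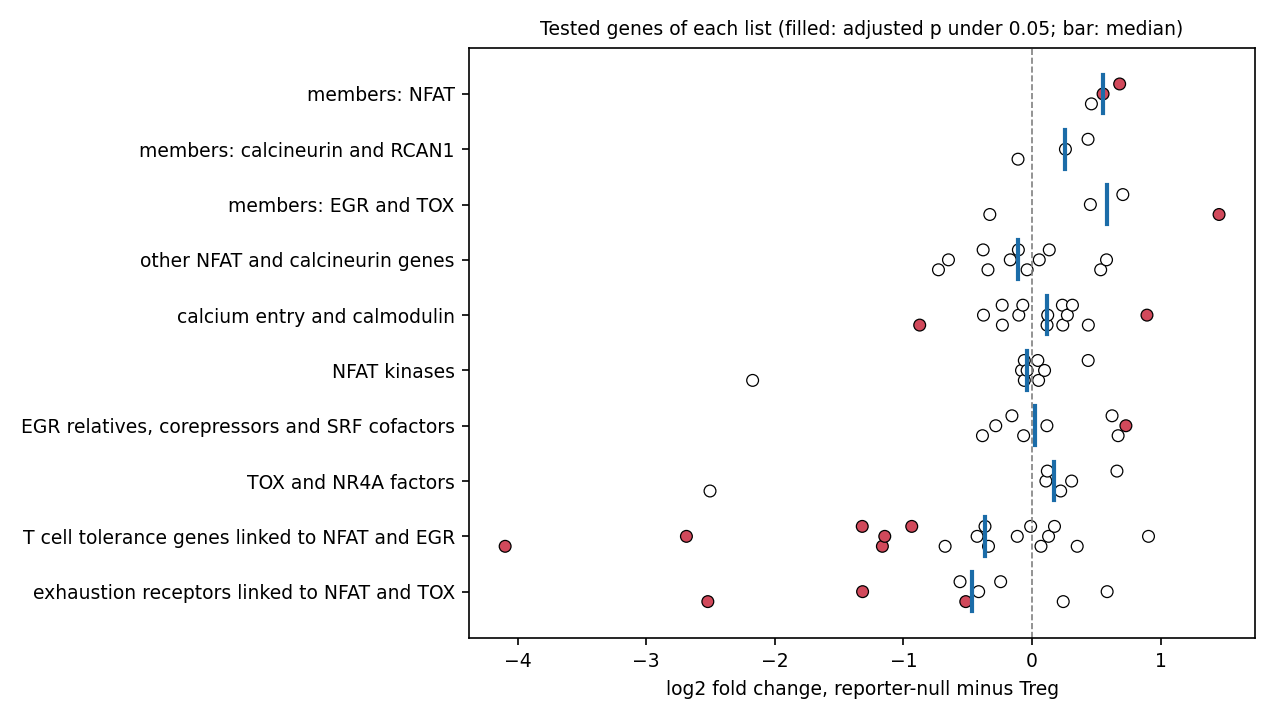
Log2 fold change, reporter-null minus Treg, of each tested gene in the member groups and the pathway lists, filled for an adjusted p under 0.05 in the edgeR fit, with a blue bar at the list's median. The NFAT members lie to the right of 0, with a median of 0.553, and the called genes of the tolerance and exhaustion lists lie to the left.

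The genes with profiles closest to each called member were found by the root mean square difference of centred log2 CPM over the 5 libraries, among 8928 genes. For Nfatc3 they were Hps5 (0.028), Notch1 (0.029) and Slc20a1 (0.031). For Nfatc1 they were Tmem64 (0.039), Ahcy (0.041) and Aebp2 (0.042). For Egr3 the distances were larger, with 0.106 for Rb1, 0.106 for Dleu2 and 0.113 for Stk26.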

How the data were processed

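RNA was extracted with TRIzol, amplified from polyadenylated RNA with the SMART-Seq v4 kit, made into libraries with the KAPA Hyper Prep kit and sequenced in pairs on an Illumina HiSeq, per the labels' protocols. The authors deposited whole-number counts per gene symbol in a single table. The submitters' processing notes list DESeq without version or role. Aligner, build, annotation and strand setting remain not given in the sources used here. Apart from the RefSeq promoter windows, gene coordinates are therefore not printed, and antisense or overlapping reads cannot be told apart. The labels name no molecular identifiers. Columns were matched to samples by their descriptions, groups and replicate numbers come from the titles, and no column was left unused.

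Of 24421 rows, 4 named NA (0.0034% to 0.00492% of counts) were left out. The filterByExpr function (minimum count 10, minimum total 15) selected genes, which were compared in R 4.3.3 by the robust quasi-likelihood F test of edgeR 4.0.16 with TMM factors, all 5 libraries and Benjamini-Hochberg adjustment over 14164 genes at a threshold of 0.05. The SE is the fold change divided by the square root of F. Log2 CPM for profiles and balances used a prior count of 2. Alternatives were DESeq2 1.42.0, limma-voom (limma 3.58.1), RLE or upper quartile normalisation, no robust option, other low-count filters, each library left out and 2 replicate blocks. A further alternative without Treg replicate 1 and reporter-null replicate 2 was added after seeing the data. The fit was tested on simulated counts.

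The members, lists and tests were chosen with earlier results of these data known. By rule, the text names all members, up to 4 genes of smallest p per pathway list, up to 3 leading markers per marker list, and the 3 closest profiles to each called member among genes with a mean log2 CPM of at least 3. Dtx1, Rnf128, Ctla4, Pdcd1 and Lag3 were named after their values were seen. So were other markers and dissociation genes (Cd3e, Cd4, Cd2, Cd8a, Muc2, Fabp2, Cd79b, Ms4a1, Klrk1, Ncr1, Jund, Hspa1a, Atf3, Fos, Fosb, Ier3, Btg2 and Nfkbia). The markers Kit, Il1rl1, Cd8b1, Klrb1c, Eomes and Pdgfrb were added last, also with their values known. Of the genes that fell on the tolerance list, 1 is not reported here.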

Additional observations from a re-analysis of the deposited data

How the results depend on the processing

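All 10 members kept their direction in the 15 alternatives except Ppp3cb, which turned to 0.00157 without reporter-null replicate 2 and to 0.125 without both libraries that stood apart (-0.2556 to 0.00157 with 1 library left out), and Egr2, which turned to -0.04611 without Treg replicate 1 (up to 1.239 without Treg replicate 2). Of the balances, Nfatc1 minus Nfatc2 turned to -0.196 without Treg replicate 2 and was 0.32 without Treg replicate 1. The count of called genes was 2323 with DESeq2, ran from 341 to 2035 with 1 library left out, and was 2152 without Treg replicate 1 and reporter-null replicate 2. The count of called members ran from 0 to 3 with 1 library left out and was 1 without those 2 libraries. Over the pathway lists without the dissociation list, 12 of 73 tested genes were called, 20 with DESeq2, 6 to 18 with 1 library left out and 16 without those 2 libraries. The other normalisations, filters, limma-voom and the fit without the robust option kept the counts of all genes and of members within 1.5 times and were not run for the pathway lists. With the title's replicate number as a replicate block the counts fell to 24 genes and 0 members, and with the description's number as a block they were 1399 genes and 2 members (Nfatc3 and Egr3). The adjusted p of Nfatc1 was 0.168 and 0.072 under these blocks. Deviations from the group means correlated across genes at -0.511 and -0.602 for libraries sharing a title number, and at 0.602 and 0.481 for those sharing a description number. With 2 Treg libraries these deviations mirror each other, so a value for 1 of them fixes that for the other with the sign turned. The -0.602 and the 0.602 are therefore the same value, and these correlations cannot decide between the numberings. The labels do not say what either number marks. With 2 Treg libraries, fits that leave out a library are short of replicates, and Egr3 rests on 77 to 374 counts per library, which carry counting error that the deeper members do not.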
